A study of Mus musculus with 12 samples.

Results

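Ileum transcripts of 9 mice from 3 knockout groups that cannot make αβ T cells were set against those of 3 wild type mice, so all 12 libraries of the series enter the comparison. The knockout groups were Rag1-/- mice, Tcra-/- mice housed separately, and Tcra-/- mice that shared cages for 4 to 8 weeks with equal numbers of wild type males of the same age. The wild type mice were C57BL/6, and each group held 3 mice with 1 library each. The labels say that the mice were supplied by Taconic and give the tissue as terminal ileum. They do not give the age or sex of every mouse, the substrain or colony of each line, or whether the 3 sequenced wild type mice were cage mates of the co-housed group. Rag1-/- mice have neither αβ nor γδ T cells nor mature B cells. Tcra-/- mice keep B cells and γδ T cells and can hold some T cells with a receptor β chain alone. The groups therefore share the lack of αβ T cells and differ in what other lymphocytes they keep and, between the Tcra-/- groups, in housing.

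An αβ T cell recognises peptide held in an MHC molecule, with CD4 or CD8 as its coreceptor and the CD3 chains as its signalling part. In the ileum these cells lie between epithelial cells, in the lamina propria and in Peyer's patches, where follicular helper T cells sustain germinal centres. B cells in germinal centres mutate and switch their antibody genes, and many of their descendants are plasma cells that release dimeric IgA, which the epithelium carries into the lumen.

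Reads per library ran from 37061276 to 50581616, and 15866 of 23284 genes in the table had enough reads to be tested. A gene was called at a Benjamini-Hochberg adjusted p under 0.01 in the quasi-likelihood test of edgeR, two-sided. The mean of the 3 group effects, each weighted equally, called 1759 genes, 11.1% of those tested. Of these 627 (3.95%) were higher and 1132 (7.13%) lower in the knockout groups. The log2 fold change had the same sign in each of the 3 groups for 1042 of them, 6.57% of all genes tested, with 295 (1.86%) higher and 747 (4.71%) lower. In the single comparisons with wild type, Rag1-/- mice had 1494 genes higher (9.42%) and 1820 lower (11.5%), separately housed Tcra-/- mice 961 higher (6.06%) and 1221 lower (7.7%), and co-housed Tcra-/- mice 1482 higher (9.34%) and 1458 lower (9.19%). A call by the mean with 1 sign can come from a change in 1 group alone. A stricter count took genes that passed the test in the same direction in each group's own comparison with wild type. It held 166 genes, 1.05% of those tested, with 48 (0.303%) higher and 118 (0.744%) lower. All 166 were also called by the mean. The 3 comparisons share the same 3 wild type mice, so a wild type mouse with an unusual level enters each of them. Without wild type mouse WTB6x3160 the stricter count was 24 higher and 71 lower, and without wild type mouse WTB6x3159 it was 29 higher. Without mouse WTB6x3160 the mean called 363 genes higher and 740 lower, 179 of the higher ones with 1 sign, and without mouse WTB6x3159 it called 345 higher, 167 of them with 1 sign. In the text, "shared" is used of genes in the stricter count, and levels are CPM, read counts scaled to the size and composition of each library. A mean log2 fold change is the average of the 3 group values, with its standard error (SE).

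The knockout groups also differed from each other. A test among them, in which the wild type mice served only to estimate the spread, called 6492 genes, 40.9% of those tested. It called 1446 (82.2%) of the 1759 genes of the mean and 87 of the 166 shared genes, leaving 79 shared genes with no call among the groups. Of the 118 shared falls, 72 differed among the groups, and the fall was largest in Rag1-/- mice for 58 of these and smallest in co-housed Tcra-/- mice for 51. The median absolute log2 fold change over the 166 genes was 1.91 in Rag1-/-, 1.45 in separately housed Tcra-/- and 1.15 in co-housed Tcra-/- mice. All 48 shared rises and 117 of the 118 shared falls had all 9 knockout mice beyond all 3 wild type mice. Over all genes tested, 231 (1.46%) lay wholly above and 455 (2.87%) wholly below wild type.

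**Figure D1:**
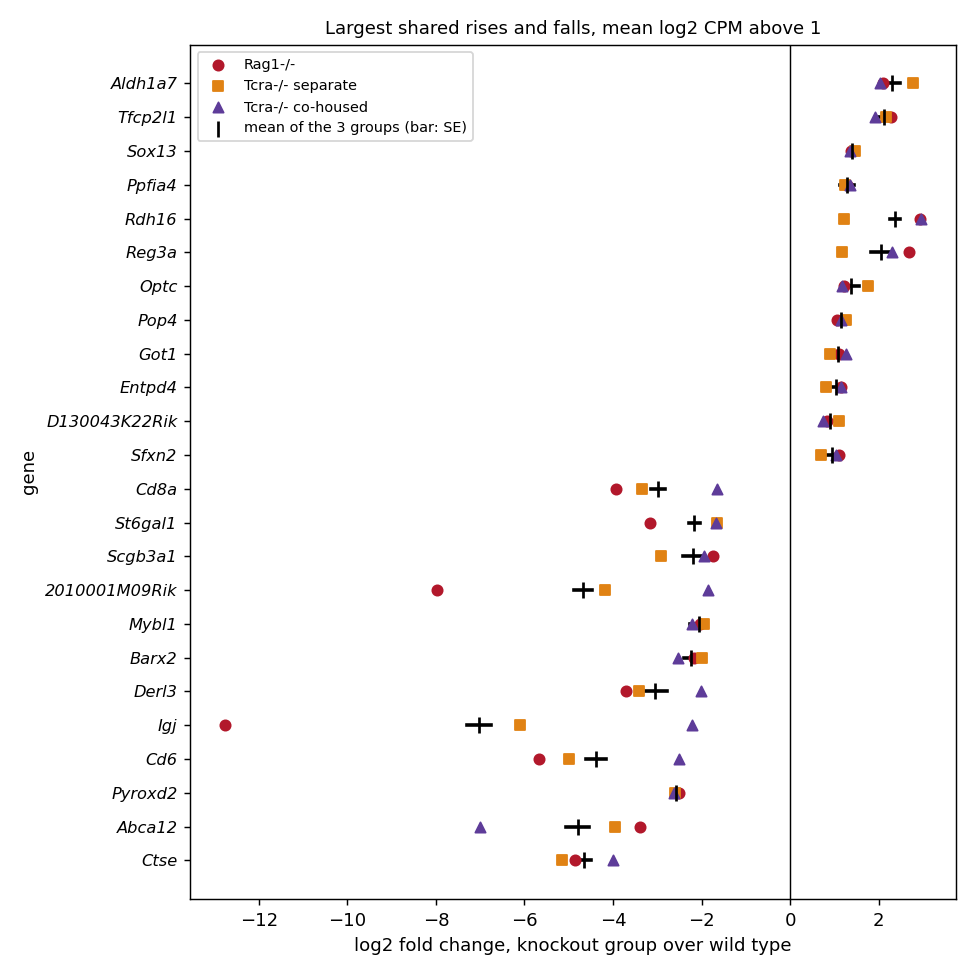
Log2 fold change over wild type in each knockout group (points; 3 mice each) for the 12 largest shared rises and the 12 largest shared falls among genes with a mean log2 CPM above 1 and groups that do not overlap, ranked by the smallest of the 3 group values; black ticks and bars show the mean of the 3 groups and its standard error. Tfcp2l1, Sox13, Ppfia4, Pop4, Mybl1, Barx2 and Pyroxd2 have their 3 points close together, while Igj and 2010001M09Rik run from below -7 in Rag1-/- mice to about -2 in co-housed Tcra-/- mice.

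The targeted genes were read first. Rag1 reads were found in the Rag1-/- mice alone, 75, 69 and 92 reads, against 0 in each Tcra-/- mouse and 0 in each wild type mouse, at least 80.7-fold above wild type with a floor of 3 counts over the wild type group. Counts per gene do not show which part of Rag1 those reads cover, so they do not check the deletion. Rag2, the recombinase partner of Rag1, had 7 to 9 reads in each Rag1-/- mouse, against 5 to 14 in each wild type mouse, and was not called. No T cell receptor α gene was among the genes analysed here, so the Tcra-/- labels were read through αβ T cell markers, which follow.

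Transcripts of αβ T cells were lower in the knockout groups, and least so in the co-housed one. Of 18 tested genes of αβ T cell coreceptors and costimulation, 16 were called lower by the mean, 14 of them with 1 sign in each group, and 6 were shared falls (Cd4, Cd5, Cd6, Cd8b1, Cd27 and Tcf7). None of the 18 was called higher. Over all genes tested, 7.13% were lower by the mean, 4.71% with 1 sign, and 0.744% were shared falls. Their median log2 fold change was -3.09 in Rag1-/-, -3.13 in separately housed Tcra-/- and -0.83 in co-housed Tcra-/- mice, where the median over all genes was -0.02, 0.01 and 0.00. In whole tissue, fewer cells of a type and less RNA per cell cannot be told apart.

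Cd6, a scavenger receptor family protein of the T cell surface, was measured at 0.098, 0.237 and 0.128 CPM in Rag1-/- mice, 0.219, 0.303 and 0.219 CPM in separately housed Tcra-/- mice and 1.14, 2.06 and 0.99 CPM in co-housed Tcra-/- mice, against 5.4, 9 and 9.55 CPM in wild type mice. The separately housed Tcra-/- mice lay beside the Rag1-/- mice, the co-housed ones lay higher, and none of the 9 reached wild type. The mean log2 fold change was -4.39 (SE 0.23, adjusted p = 3.11e-09), from log2 fold changes of -5.67 in Rag1-/-, -5.0 in separately housed Tcra-/- and -2.50 in co-housed Tcra-/- mice. Cd5, a relative of Cd6 that dampens T cell receptor signals, had 1 read in the 3 Rag1-/- mice, 13 in the 3 separately housed and 36 in the 3 co-housed Tcra-/- mice, against 572 in the 3 wild type mice. The Rag1-/- level was 557-fold below wild type (95% counting interval 99.6 to 22000, counting error only). In separately housed Tcra-/- mice the Cd5 log2 fold change was -5.43 and in co-housed mice -3.83. Cd5 was thus far down in the co-housed group too, where the median of the list was -0.83. Cd5 (mm9 chr19:10792633-10813464) and Cd6 (mm9 chr19:10863829-10904548) lie close together on chromosome 19, where shared genes were frequent, as described below. Between them lies A430093F15Rik, a shared fall with log2 fold changes of -4.16 in Rag1-/-, -4.95 in separately housed Tcra-/- and -5.18 in co-housed Tcra-/- mice. The part of position in these falls was not tested.

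Coreceptor transcripts were lower too. Cd8a, the CD8 α chain, which γδ intraepithelial lymphocytes also carry, was at 1.81, 1.54 and 2.43 CPM in Rag1-/- mice, 2.83, 2.77 and 3.17 CPM in separately housed Tcra-/- mice and 9.03, 12.1 and 7.53 CPM in co-housed Tcra-/- mice, against 21, 36.3 and 32.2 CPM in wild type mice. All 9 knockout mice lay below the lowest wild type mouse, and the mean log2 fold change was -2.98 (SE 0.16, adjusted p = 1.83e-08). Cd8b1, the CD8 β chain, had log2 fold changes of -2.93 in Rag1-/-, -4.96 in separately housed Tcra-/- and -2.24 in co-housed Tcra-/- mice, and was lowest in the separately housed group. Cd4, which macrophages and innate lymphoid cells also express in mice, showed 2.47, 2.77 and 3.61 CPM in Rag1-/- mice, 2.9, 2.66 and 2.67 CPM in separately housed Tcra-/- mice and 3.74, 6.56 and 3.17 CPM in co-housed Tcra-/- mice, against 7.67, 8.48 and 9.57 CPM in wild type mice. Its fall was smaller, with a mean log2 fold change of -1.37 (SE 0.17, adjusted p = 2.81e-05). Tcf7, a transcription factor of T cell development, had log2 fold changes of -1.81 in Rag1-/-, -1.41 in separately housed Tcra-/- and -0.76 in co-housed Tcra-/- mice, ordered as those of Cd6. Foxp3, which defines regulatory T cells, had 6 reads in the 3 Rag1-/- mice, 8 in the 3 separately housed and 14 in the 3 co-housed Tcra-/- mice, against 78 in the 3 wild type mice. It was called by the mean and lay below wild type in all 9 knockout mice, but missed the threshold in co-housed mice (adjusted p = 0.0141). Cd28, Ctla4 and Icos, which carry costimulatory signals or restrain them, were called by the mean with 1 sign. Their co-housed values of -1.20, -0.90 and -0.47 did not pass. Bcl11b and Il7r were not called, and Bcl11b had log2 fold changes of -0.26 in Rag1-/-, -0.07 in separately housed Tcra-/- and -0.31 in co-housed Tcra-/- mice.

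The receptor's signalling part gave a similar picture. Of 20 tested genes of the T cell receptor complex and its signalling, 19 were called lower by the mean and all 19 had 1 sign in each group. 5 were shared falls, among them Cd3e, Cd8a, Lck and Ubash3a, and the exception to the mean call was Prkcq. Median log2 fold changes were -3.23 in Rag1-/-, -2.81 in separately housed Tcra-/- and -0.92 in co-housed Tcra-/- mice. Cd3e, a CD3 chain that γδ T cells share, was at 0, 0.0474 and 0 CPM in Rag1-/- mice, 0.79, 1.05 and 1.42 CPM in separately housed Tcra-/- mice and 3.63, 6.15 and 2.53 CPM in co-housed Tcra-/- mice, against 6.84, 12.7 and 9.95 CPM in wild type mice. The Rag1-/- mice had 2 reads together, 637-fold below wild type (95% counting interval 176 to 5270), while separately housed Tcra-/- mice had -3.17 and co-housed ones -1.25 on the log2 scale. The difference among knockout groups passed the test (adjusted p = 1.78e-06). Lck, a kinase that acts just below the receptor, had a mean log2 fold change of -2.24 (SE 0.19, adjusted p = 3.43e-06). With 1 mouse left out in turn, the stricter call was lost in 10 of 12 fits for Cd3e, 9 for Lck, 9 for Ubash3a and 4 for Cd4, while the call by the mean held in all 12 for each of these genes.

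**Figure D2:**
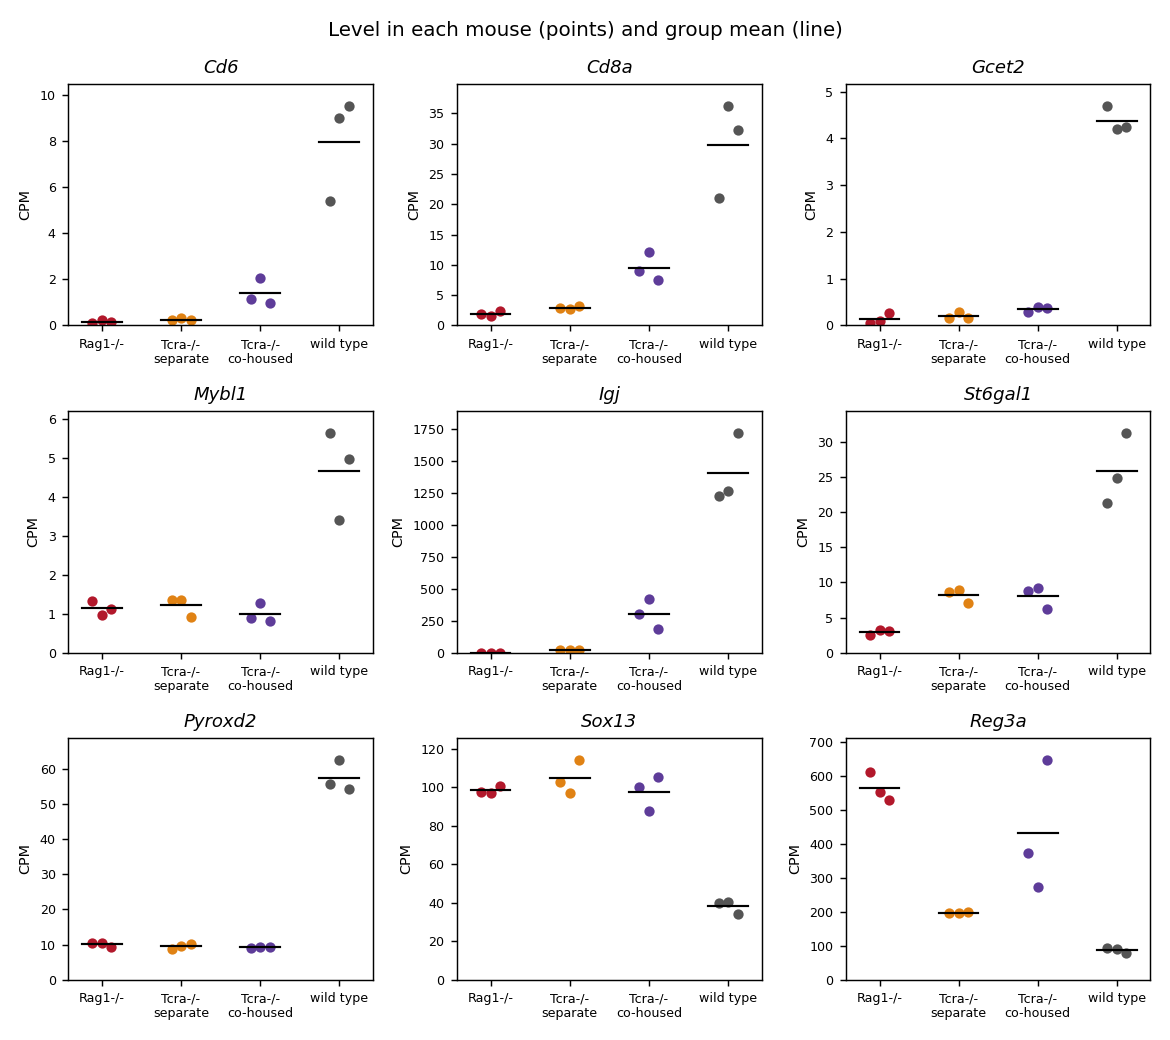
Level in CPM (y axis, from 0) in each mouse (points) and group mean (lines) for 9 genes in Rag1-/-, separately housed Tcra-/-, co-housed Tcra-/- and wild type mice. In every panel the 9 knockout mice lie on 1 side of the 3 wild type mice; Cd6, Cd8a and Igj step up across the knockout groups, while Gcet2, Mybl1, Pyroxd2 and Sox13 are nearly level across them.

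Transcripts of cytotoxic and intraepithelial lymphocytes were lower as well. Of 24 tested, 18 were called lower with 1 sign in each group, none higher, and 3 were shared falls. Median log2 fold changes were -1.93 in Rag1-/-, -2.50 in separately housed Tcra-/- and -0.60 in co-housed Tcra-/- mice, so here the separately housed group was lowest. Prf1, the pore protein perforin, had 0.392, 0.308 and 0.576 CPM in Rag1-/- mice, 0.0878, 0.163 and 0.109 CPM in separately housed Tcra-/- mice and 0.428, 0.823 and 0.545 CPM in co-housed Tcra-/- mice, against 1.01, 2.22 and 1.83 CPM in wild type mice. All 9 knockout mice were below the lowest wild type mouse, with a mean log2 fold change of -2.41 (SE 0.28, adjusted p = 1.45e-05). Itgae, the integrin chain CD103 that ties lymphocytes to epithelium, was the shared fall whose groups overlapped. It was at 8.16, 8.22 and 9.05 CPM in Rag1-/- mice, 4.7, 4.01 and 4.68 CPM in separately housed Tcra-/- mice and 11.3, 18.2 and 9.28 CPM in co-housed Tcra-/- mice, against 17.7, 28.4 and 29.7 CPM in wild type mice. Thus 1 co-housed mouse exceeded 1 wild type mouse. Cd7, a surface protein of T and innate lymphocytes, had a mean log2 fold change of -1.98 (SE 0.21, adjusted p = 4.05e-05). Gzma, a granule protease, showed 23.3, 23.7 and 34 CPM in Rag1-/- mice, 3.38, 2.87 and 2.06 CPM in separately housed Tcra-/- mice and 23.2, 55.9 and 13.7 CPM in co-housed Tcra-/- mice, against 80.3, 139 and 133 CPM in wild type mice. All 9 knockout mice were below wild type, yet only the separately housed group passed the test on its own (adjusted p = 0.000313, against 0.0104 in Rag1-/- and 0.0174 in co-housed mice). The stricter call was lost in 10 of 12 leave-one-out fits for Itgae, in 4 for Cd7 and in 4 for Prf1.

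The γδ T cell list had 6 tested members and moved in no common direction. Sox13, a transcription factor of γδ T cells that other tissues also express, was a shared rise and is described with the genes of chromosome 1, and Ikzf2 was called lower. The others (Etv5, Il23r, Cd163l1 and Zbtb16) were not called.

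Germinal centre transcripts were low in all 3 knockout groups, the co-housed one included. The 15 genes used to describe them were put together after their values were seen, so their count is a description and supports nothing by itself. Of the 15, 13 were called lower by the mean, 11 were shared falls, and 8 of those 11 were not called different among the knockout groups. Median log2 fold changes were -3.58 in Rag1-/-, -2.49 in separately housed Tcra-/- and -1.78 in co-housed Tcra-/- mice. Of these genes Mybl1 and S1pr2 were also named by the rule for all genes.

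Gcet2, a germinal centre B cell protein (now Gcsam), was at 0.049, 0.0948 and 0.256 CPM in Rag1-/- mice, 0.154, 0.28 and 0.153 CPM in separately housed Tcra-/- mice and 0.286, 0.389 and 0.371 CPM in co-housed Tcra-/- mice, against 4.7, 4.19 and 4.25 CPM in wild type mice. Its mean log2 fold change was -4.36 (SE 0.23, adjusted p = 3.81e-09), and the highest knockout mouse was more than 10-fold below the lowest wild type mouse. Mef2b, a transcription factor of germinal centre B cells, had 4 reads in the 3 Rag1-/- mice, 5 in the 3 separately housed and 17 in the 3 co-housed Tcra-/- mice, against 300 in the 3 wild type mice. Gm600, the germinal centre GTPase gene Nuggc, had 2 reads in the 3 Rag1-/- mice, 17 in the 3 separately housed and 22 in the 3 co-housed Tcra-/- mice, against 455 in the 3 wild type mice. The Rag1-/- level of Gm600 was 222-fold below wild type (95% counting interval 61.0 to 1840).

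Mybl1, a Myb family factor found in germinal centre B cells and in germ cells, and S1pr2, a receptor that keeps B cells in the follicle centre, had the smallest differences between groups of the 11 shared falls. Mybl1 was measured at 1.32, 0.972 and 1.13 CPM in Rag1-/- mice, 1.36, 1.35 and 0.919 CPM in separately housed Tcra-/- mice and 0.885, 1.28 and 0.817 CPM in co-housed Tcra-/- mice, against 5.65, 3.4 and 4.96 CPM in wild type mice. It had log2 fold changes of -2.03 in Rag1-/-, -1.95 in separately housed Tcra-/- and -2.22 in co-housed Tcra-/- mice, with a mean of -2.07 (SE 0.18, adjusted p = 7.5e-07), and the groups were not called different (adjusted p = 0.657). S1pr2 was lower by less, with log2 fold changes of -1.18 in Rag1-/-, -1.20 in separately housed Tcra-/- and -0.95 in co-housed Tcra-/- mice. Both genes sat low in every knockout mouse whether or not the group had B cells. Mybl1 lies on chromosome 1, where shared genes were frequent, as described below, and the part of position in its fall was not tested. S1pr2 lost the stricter call in 2 of 12 leave-one-out fits.

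Transcripts of follicular helper T cells were low as well. Il21, the cytokine they release, had 8 reads in the 3 Rag1-/- mice, 5 in the 3 separately housed and 21 in the 3 co-housed Tcra-/- mice, against 103 in the 3 wild type mice. Folr4 (now Izumo1r), a folate receptor family gene found on regulatory and helper T cells, had 0 reads in the 3 Rag1-/- mice, 4 in the 3 separately housed and 13 in the 3 co-housed Tcra-/- mice, against 205 in the 3 wild type mice. The Rag1-/- level of Folr4 was at least 66.6-fold lower than wild type, taking 3 counts over the group as the floor. Tigit, an inhibitory receptor, and Tox2, a factor of helper T cell identity, had mean log2 fold changes of -2.24 (SE 0.29, adjusted p = 3.2e-05) and -2.01 (SE 0.33, adjusted p = 0.000339). Pdcd1, the PD-1 receptor, was called by the mean but not in co-housed mice, with log2 fold changes of -1.73 in Rag1-/-, -4.37 in separately housed Tcra-/- and -0.52 in co-housed Tcra-/- mice. Bcl6, the factor that directs both cell types but is also made by other cells, had log2 fold changes of 0.13 in Rag1-/-, 0.21 in separately housed Tcra-/- and 0.21 in co-housed Tcra-/- mice and was not called, and neither was Fas. The stricter call was lost in 9 of 12 leave-one-out fits for Il21, 8 for Tox2 and 4 for Tigit.

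B cell transcripts at large depended on the group. Of 20 tested, 18 were called lower by the mean and 16 had 1 sign in each group, but Vpreb3 alone was a shared fall. Median log2 fold changes were -5.38 in Rag1-/-, -1.23 in separately housed Tcra-/- and -0.32 in co-housed Tcra-/- mice, so the mean was carried mostly by the Rag1-/- group, which has no B cells. Ms4a1, the B cell membrane protein CD20, was at 0.049, 0.0474 and 0.128 CPM in Rag1-/- mice, 7.11, 12.8 and 8.16 CPM in separately housed Tcra-/- mice and 24.7, 26.6 and 21.1 CPM in co-housed Tcra-/- mice, against 39.5, 23.4 and 32.4 CPM in wild type mice. The co-housed and wild type mice overlapped, while each Rag1-/- mouse was near 0 (adjusted p = 4.22e-08 among knockout groups). Cd79a, which passes on the signal of the B cell receptor, had log2 fold changes of -8.80 in Rag1-/-, -1.46 in separately housed Tcra-/- and -0.43 in co-housed Tcra-/- mice. Cxcr5, the receptor that brings B cells and helper T cells into follicles, had log2 fold changes of -5.04 in Rag1-/-, -1.54 in separately housed Tcra-/- and -0.23 in co-housed Tcra-/- mice. Vpreb3, a B cell protein related to the surrogate light chain, had 0 reads in the 3 Rag1-/- mice, 113 in the 3 separately housed and 198 in the 3 co-housed Tcra-/- mice, against 454 in the 3 wild type mice, which puts the Rag1-/- level at least 147-fold below wild type. Its log2 fold change was -2.01 in separately housed and -1.04 in co-housed Tcra-/- mice.

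Some transcripts of the IgA system were lower in each group, to different depths. Of 11 tested plasma cell genes, 4 were not called by the mean and 5 were shared falls (Derl3, Igj, Irf4, Pigr and Pou2af1). Tnfrsf17 was also lower with 1 sign, and Xbp1, which secretory epithelium uses too, was called higher by the mean without a common sign. Igj, the joining chain of dimeric IgA (now Jchain, mm9 chr5:88948834-88956922), was at 0.0245, 0.166 and 0.384 CPM in Rag1-/- mice, 22.2, 22.3 and 16.7 CPM in separately housed Tcra-/- mice and 302, 420.2 and 182 CPM in co-housed Tcra-/- mice, against 1229, 1265 and 1722 CPM in wild type mice. It was almost absent from Rag1-/- mice, which had 26 reads in all, low in the separately housed group, and intermediate in the co-housed group. It had log2 fold changes of -12.76 in Rag1-/-, -6.11 in separately housed Tcra-/- and -2.22 in co-housed Tcra-/- mice, and the difference among knockout groups passed the test (adjusted p = 7.16e-07). 2010001M09Rik, the plasma cell gene now named Mzb1, was ordered in the same way, with log2 fold changes of -7.98 in Rag1-/-, -4.19 in separately housed Tcra-/- and -1.85 in co-housed Tcra-/- mice and a mean of -4.67 (SE 0.21, adjusted p = 3.74e-09). Derl3, which clears misfolded protein from the endoplasmic reticulum of secretory cells, was at 0.637, 0.711 and 0.96 CPM in Rag1-/- mice, 0.79, 1.49 and 0.569 CPM in separately housed Tcra-/- mice and 1.57, 3.77 and 2.03 CPM in co-housed Tcra-/- mice, against 7.31, 9.34 and 13.6 CPM in wild type mice. Its mean log2 fold change was -3.04 (SE 0.26, adjusted p = 3.63e-06).

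Pou2af1 and Irf4, transcription regulators of B and plasma cells, had mean log2 fold changes of -3.06 (SE 0.14, adjusted p = 3.11e-09) and -2.70 (SE 0.17, adjusted p = 4.92e-08). Ccr10, the receptor that guides IgA plasma cells to mucosa, had 0 reads in the 3 Rag1-/- mice, 6 in the 3 separately housed and 50 in the 3 co-housed Tcra-/- mice, against 199 in the 3 wild type mice. That puts the Rag1-/- level at least 64.6-fold below wild type. Pigr, the epithelial carrier of dimeric IgA, was the abundant member, at 2414, 2930.4 and 2794 CPM in Rag1-/- mice, 1769, 1651 and 1521 CPM in separately housed Tcra-/- mice and 1772, 1622 and 1604 CPM in co-housed Tcra-/- mice, against 3282, 3888 and 4007 CPM in wild type mice. Here the order of the groups was turned round, with log2 fold changes of -0.46 in Rag1-/-, -1.18 in separately housed Tcra-/- and -1.16 in co-housed Tcra-/- mice (adjusted p = 7.92e-06 among knockout groups). The Rag1-/- mice, which have no IgA, were closest to wild type. Fcamr, a receptor for IgA and IgM next to Pigr in the genome, was lower, with log2 fold changes of -4.22 in Rag1-/-, -3.25 in separately housed Tcra-/- and -2.15 in co-housed Tcra-/- mice. Pigr and Fcamr lie on chromosome 1, where shared genes were frequent, as described below, and the part of position in their falls was not tested. St6gal1, a sialyltransferase abundant in B cells and liver, was at 2.45, 3.15 and 3.01 CPM in Rag1-/- mice, 8.67, 8.92 and 7.02 CPM in separately housed Tcra-/- mice and 8.77, 9.24 and 6.26 CPM in co-housed Tcra-/- mice, against 21.3, 24.9 and 31.3 CPM in wild type mice. Both Tcra-/- groups held nearly equal levels between those of Rag1-/- and wild type mice. Its mean log2 fold change was -2.17 (SE 0.12, adjusted p = 8.17e-09). Leaving out 1 mouse ended the stricter call of Ccr10 in 3 of 12 fits, of Vpreb3 in 4 and of Pigr in 1.

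Follicle stroma, chemokines and innate lymphoid cells moved by less and mostly through some of the groups. The shares over all genes tested were 7.13% lower by the mean and 0.744% shared falls. Of 11 tested genes of lymphoid follicles and their stroma, 8 were lower by the mean and 1 was shared. Of 25 chemokine and receptor genes, 12 were lower and Ccr10 alone was shared. Of 19 genes of group 3 innate lymphoid cells, 7 were lower and 0 shared, with median log2 fold changes of -0.53, -0.48 and -0.02 in Rag1-/-, separately housed and co-housed Tcra-/- mice. Ltb, a cytokine of lymphoid tissue, had log2 fold changes of -2.71 in Rag1-/-, -1.40 in separately housed Tcra-/- and -0.07 in co-housed Tcra-/- mice, and Ccr6, a receptor of B cells and innate lymphoid cells, had log2 fold changes of -5.02 in Rag1-/-, -1.43 in separately housed Tcra-/- and -0.77 in co-housed Tcra-/- mice. Batf and Tnfsf11 had co-housed values of -0.35 and -0.32. Madcam1, the vessel ligand that draws lymphocytes into the gut, was lower, with log2 fold changes of -1.85 in Rag1-/-, -1.66 in separately housed Tcra-/- and -0.27 in co-housed Tcra-/- mice. In each of these 5 genes the co-housed group did not pass the test on its own. Ptprc, the leukocyte marker CD45, was also lower by the mean, with log2 fold changes of -2.19 in Rag1-/-, -1.54 in separately housed Tcra-/- and -0.46 in co-housed Tcra-/- mice, and its co-housed mice overlapped wild type. The call of Tnfsf11 by the mean was lost without wild type mouse WTB6x3159, at -1.305, and without WTB6x3160, at -1.365.

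**Figure D3:**
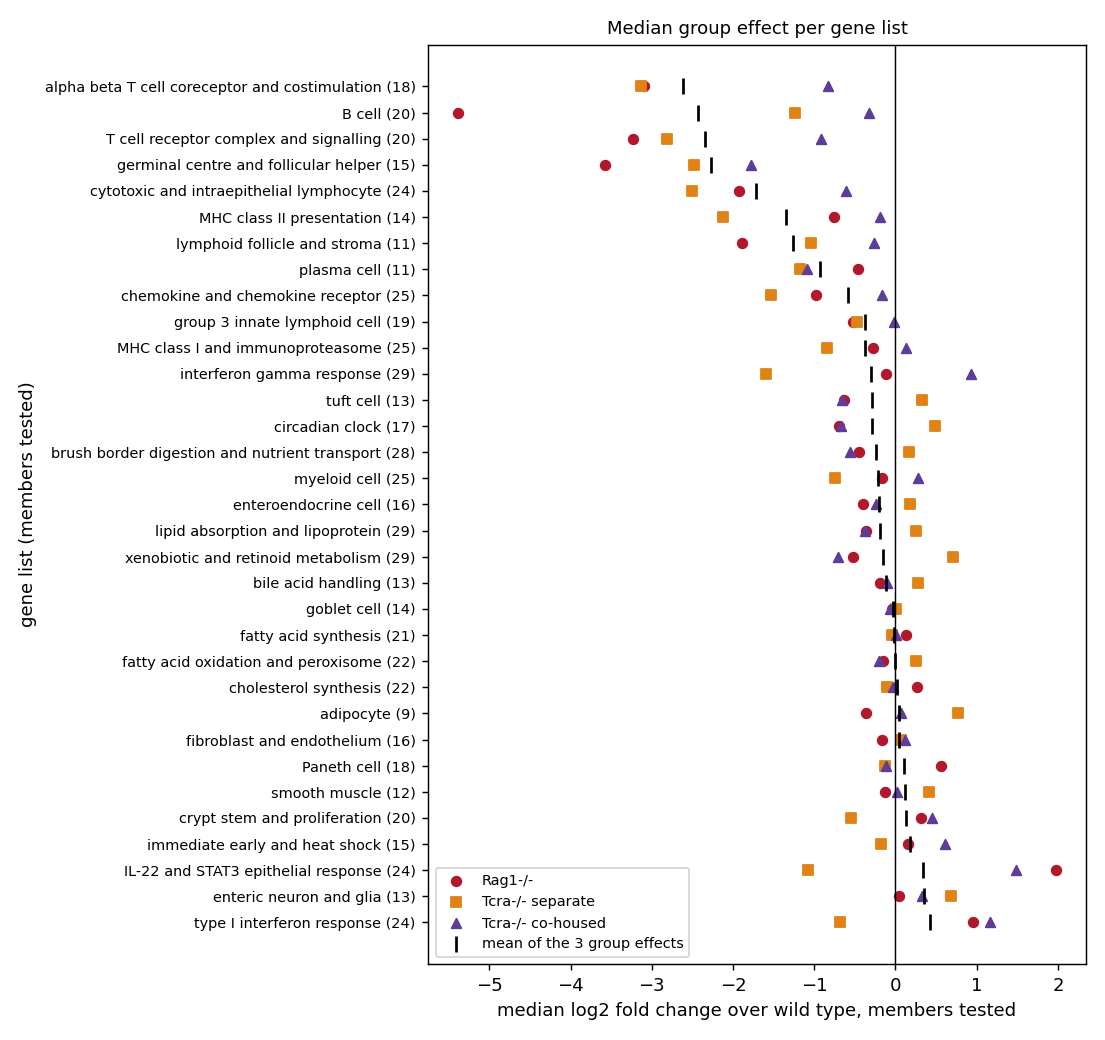
Median log2 fold change over wild type of each gene list with 9 or more tested members (number in brackets), in each knockout group (points) and for the mean of the 3 group effects (ticks); a gene with 0 reads in a group enters at its bound. In the top rows all 3 points lie left of 0, whereas the IL-22, type I interferon and interferon gamma rows have separately housed Tcra-/- mice on the left and co-housed ones on the right.

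MHC class II genes, whose products show peptide to CD4 T cells, mostly had 1 sign in each group but very unequal sizes. Of 14 tested, 11 were lower by the mean, 10 of them with 1 sign, and 0 were shared falls. Median log2 fold changes were -0.76 in Rag1-/-, -2.12 in separately housed Tcra-/- and -0.19 in co-housed Tcra-/- mice. H2-Aa, the α chain of the I-A molecule, was at 971, 952 and 1142 CPM in Rag1-/- mice, 158, 159 and 129.8 CPM in separately housed Tcra-/- mice and 1495, 1525 and 920.5 CPM in co-housed Tcra-/- mice, against 1556, 1916 and 1446 CPM in wild type mice. The separately housed mice stood far below all others, and the co-housed mice overlapped wild type. Its mean log2 fold change of -1.49 (SE 0.13, adjusted p = 1.05e-05) thus averaged log2 fold changes of -0.68 in Rag1-/-, -3.46 in separately housed Tcra-/- and -0.32 in co-housed Tcra-/- mice. Ciita, the master activator of the class II genes, had log2 fold changes of -0.90 in Rag1-/-, -3.07 in separately housed Tcra-/- and -0.36 in co-housed Tcra-/- mice, and Cd74, the invariant chain, had log2 fold changes of -0.34 in Rag1-/-, -3.56 in separately housed Tcra-/- and -0.07 in co-housed Tcra-/- mice. H2-DMa and H2-DMb1, which load peptide, had separately housed values of -3.16 and -3.59. H2-Ob and H2-Eb2 were ordered as B cell genes instead. H2-Ob had log2 fold changes of -4.37 in Rag1-/-, -1.36 in separately housed Tcra-/- and -0.36 in co-housed Tcra-/- mice. H2-Eb2 had log2 fold changes of -5.28 in Rag1-/-, -1.33 in separately housed Tcra-/- and -0.28 in co-housed Tcra-/- mice. H2-Eb1, the β chain of the I-E molecule, had log2 fold changes of -0.78 in Rag1-/-, -2.87 in separately housed Tcra-/- and -0.32 in co-housed Tcra-/- mice. Without the separately housed group, the calls of H2-Aa, H2-Ab1, H2-Eb1, H2-DMb1 and Cd74 by the mean were lost.

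Class II promoters carry a conserved set of short elements, of which the Y box, CTGATTGG, binds the factor NF-Y. It was looked for on both strands of the 250 bases before the annotated start, in RefSeq promoters of GRCm38.p6. It was present in 4 of the 11 class II genes matched, 36.4%, and in 4.07% of all 27025 promoters. The Y box was not particular to class II genes. It was also present in 6 of 19 MHC class I and immunoproteasome genes (31.6%) and in 3 of 17 interferon gamma response genes (17.6%). The gamma interferon activated site TTCNNNGAA and the core of the interferon stimulated response element were each present in 1 of the 11 class II genes. Their shares of all promoters were 7.18% and 3.04%. A match is a description of the letters and not of binding. The promoters of 3 genes are shown, 5′ to 3′ on the gene's strand with the Y box in capitals, because H2-Aa and H2-Eb1 were lowest in separately housed Tcra-/- mice while H2-Eb2 was lowest in Rag1-/- mice.
H2-Aa (chr17:34287824-34288073, minus strand): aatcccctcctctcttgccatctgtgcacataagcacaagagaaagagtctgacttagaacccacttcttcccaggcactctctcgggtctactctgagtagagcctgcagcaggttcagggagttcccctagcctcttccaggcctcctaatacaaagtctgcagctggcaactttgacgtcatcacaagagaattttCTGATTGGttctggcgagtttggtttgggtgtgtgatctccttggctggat
H2-Eb1 (chr17:34305617-34305866, plus strand): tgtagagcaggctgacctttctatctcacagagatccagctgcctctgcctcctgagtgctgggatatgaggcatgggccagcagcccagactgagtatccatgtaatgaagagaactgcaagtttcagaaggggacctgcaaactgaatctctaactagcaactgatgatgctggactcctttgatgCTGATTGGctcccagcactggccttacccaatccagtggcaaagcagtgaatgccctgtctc
H2-Eb2 (chr17:34325425-34325674, plus strand): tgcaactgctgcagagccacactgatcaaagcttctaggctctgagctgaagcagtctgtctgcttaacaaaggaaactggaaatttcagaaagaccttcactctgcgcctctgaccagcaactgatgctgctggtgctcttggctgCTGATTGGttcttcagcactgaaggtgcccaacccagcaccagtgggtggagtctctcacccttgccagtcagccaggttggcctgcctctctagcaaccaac
The Y box ends 43 bases before the start in H2-Aa, 54 in H2-Eb1 and 95 in H2-Eb2. All 3 were picked among the genes with the element, so its presence in both orders was fixed by that choice. No match was found for H2-Ob, which was lowest in Rag1-/- mice. None was found for H2-DMa and H2-DMb1, which were lowest in separately housed Tcra-/- mice.

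Shared rises were fewer than shared falls, and 4 of the 48 were on any of the lists (Reg3a, Acadl, Aldh1a1 and Sox13). Reg3a, an antimicrobial lectin of the epithelium (mm9 chr6:78330703-78333833), was at 611, 552 and 530.2 CPM in Rag1-/- mice, 196, 196 and 201 CPM in separately housed Tcra-/- mice and 373, 274 and 648 CPM in co-housed Tcra-/- mice, against 93.7, 89.3 and 77.9 CPM in wild type mice. The 9 knockout mice were all above wild type, and the separately housed group rose least, with log2 fold changes of 2.70 in Rag1-/-, 1.18 in separately housed Tcra-/- and 2.31 in co-housed Tcra-/- mice. Its close relative Reg3g did not share this, with log2 fold changes of 2.67 in Rag1-/-, -1.89 in separately housed Tcra-/- and 2.51 in co-housed Tcra-/- mice. In separately housed mice it was lower than wild type (adjusted p = 0.00398). How reads of such related genes were divided between them is not known here. Leaving out 1 mouse ended the stricter call of Reg3a in 10 of 12 fits, with a mean log2 fold change between 1.93 and 2.15. Of 24 tested genes linked to IL-22 and STAT3 in epithelium, 6 were higher by the mean, 2 lower, and Reg3a alone was shared. Among all genes tested, 3.95% were higher and 7.13% lower by the mean, and 0.303% were shared rises.

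Among the shared rises were some enzymes of lipid and retinoid metabolism. On the lists, however, only 1 of 22 fatty acid oxidation genes (Acadl) and 1 of 29 xenobiotic and retinoid genes (Aldh1a1) were shared. Shared rises made up 0.303% of all genes tested. Acadl lies on chromosome 1, and Aldh1a1 and Aldh1a7 lie on chromosome 19, where shared genes were frequent, as described below. Rdh16 lies on chromosome 10. The part of position in these rises was not tested. Rdh16, a retinol dehydrogenase, was at 46.6, 46.6 and 47.1 CPM in Rag1-/- mice, 16.8, 11.6 and 14.3 CPM in separately housed Tcra-/- mice and 47.3, 40.9 and 54.3 CPM in co-housed Tcra-/- mice, against 6.43, 5.8 and 6.17 CPM in wild type mice. The separately housed mice stood between the other knockout mice and wild type, and the mean log2 fold change was 2.37 (SE 0.12, adjusted p = 2.06e-09). Acadl, which begins the oxidation of long-chain fatty acids, had the same order, with log2 fold changes of 1.87 in Rag1-/-, 0.49 in separately housed Tcra-/- and 2.03 in co-housed Tcra-/- mice. Aldh1a1 and Aldh1a7, neighbouring retinaldehyde dehydrogenase family genes of similar sequence, both rose. Aldh1a1 had log2 fold changes of 0.60 in Rag1-/-, 1.15 in separately housed Tcra-/- and 0.69 in co-housed Tcra-/- mice, and Aldh1a7 had log2 fold changes of 2.09 in Rag1-/-, 2.77 in separately housed Tcra-/- and 2.04 in co-housed Tcra-/- mice. The Aldh1a7 level was 29.9, 30.4 and 34.8 CPM in Rag1-/- mice, 51.6, 46 and 55 CPM in separately housed Tcra-/- mice and 38.8, 27.5 and 26 CPM in co-housed Tcra-/- mice, against 9.74, 7.34 and 5.28 CPM in wild type mice. These are more than 2-fold above wild type in every knockout mouse. Reads of these near copies may have been split between them, so the pair is uncertain. The stricter call of Aldh1a1 was lost in 8 of 12 leave-one-out fits. Plscr1, a membrane protein that interferon raises, was a shared rise with a mean log2 fold change of 0.80 (SE 0.10, adjusted p = 3e-05). It was chosen after its values were seen, and 0 of the 24 type I interferon genes tested were shared. Srd5a2, a steroid 5α-reductase that was also chosen so, had a mean log2 CPM below 1 and so lay outside the ranking of the largest rises. It was barely read in wild type mice, with 228 reads in the 3 Rag1-/- mice, 122 in the 3 separately housed and 175 in the 3 co-housed Tcra-/- mice, against 13 in the 3 wild type mice.

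The other shared rises among the 12 largest with a mean log2 CPM above 1 were Sox13, Tfcp2l1, Ppfia4, Optc, Pop4, Got1, Entpd4, D130043K22Rik and Sfxn2. Tfcp2l1, a transcription factor of epithelial and pluripotent cells, was at 99.6, 129 and 124 CPM in Rag1-/- mice, 106, 94.4 and 126 CPM in separately housed Tcra-/- mice and 104, 69.6 and 101 CPM in co-housed Tcra-/- mice, against 27, 23.9 and 21.4 CPM in wild type mice. It had log2 fold changes of 2.29 in Rag1-/-, 2.18 in separately housed Tcra-/- and 1.93 in co-housed Tcra-/- mice, with a mean of 2.13 (SE 0.15, adjusted p = 1.54e-06), and the groups were not called different (adjusted p = 0.17). Pop4, a subunit of the ribonucleases P and MRP, was at 15.3, 14.5 and 14.8 CPM in Rag1-/- mice, 18.3, 17.6 and 15.4 CPM in separately housed Tcra-/- mice and 15.7, 17.6 and 14.7 CPM in co-housed Tcra-/- mice, against 7.81, 6.59 and 7.09 CPM in wild type mice. Its mean log2 fold change was 1.16 (SE 0.09, adjusted p = 2.67e-07), and all 9 knockout mice lay well above the 3 wild type mice. Entpd4, a nucleotide hydrolase, and D130043K22Rik, with the synonym Kiaa0319, had mean log2 fold changes of 1.03 (SE 0.09, adjusted p = 4e-07) and 0.89 (SE 0.10, adjusted p = 1.32e-05). Tfcp2l1 lies on chromosome 1 (mm9 chr1:120524522-120581745), as do Sox13, Ppfia4, a liprin scaffold, and Optc, an extracellular matrix protein. Got1, which links aspartate and glutamate metabolism, and Sfxn2, a mitochondrial carrier, lie on chromosome 19. The genes of these chromosomes come next.

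Position was not used by the rule, and shared genes were unevenly spread over the genome. Chromosomes 1 and 19 held 1517 of the 15866 genes tested (9.56%) but 51 of the 166 shared genes (30.7%). In other terms, 3.36% of the genes tested on these 2 chromosomes were shared, against 0.801% (115 of 14349) elsewhere. Chromosome 1 had 32 of 953 and chromosome 19 had 19 of 564, and the next was chromosome 6 with 14 of 812 (1.72%). The chromosomes were singled out after the counts were seen, so no test is given. Of the 79 shared genes that were not called different among knockout groups, 31 (39.2%) were on these chromosomes, and of the 87 that were, 20 (23%).

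**Figure D4:**
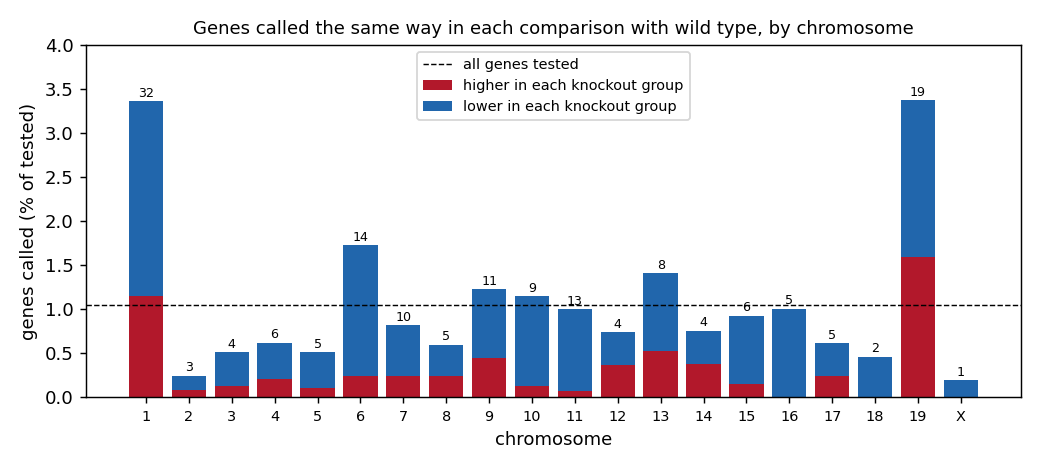
Share of the genes tested on each chromosome (y axis, percent, from 0) that were called in the same direction in each of the 3 comparisons with wild type, split into higher and lower, with the number of genes above each bar; the dashed line is the share over all genes tested. Chromosomes 1 and 19 stand at 3.36% and 3.37%, and no other chromosome passes 1.72%.

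Chromosome 1 held 32 shared genes and chromosome 19 held 19, and on each a part of them lay close together. The others were spread over further windows of the same chromosome. A window of 10 Mb on chromosome 1, from 130 to 140 Mb in mm9, held 15 shared genes of 103 tested (14.6%), and 1 on chromosome 19, from 40 to 50 Mb, held 8 of 114 (7.02%). Over the 232 windows with at least 20 genes tested, 141 held no shared gene, 86 held 1 to 3 and 5 held 4 or more. The window of chromosome 1 holds Ctse, Sox13, Ppfia4, Optc, Golt1a, Chi3l1, Ptprv, Etnk2, Pigr, Fcamr, Ren1 and Ren2 among others, 5 of the 15 higher and 10 lower. That of chromosome 19 holds Pyroxd2, Hps1, Got1, Sfxn2, Taf5, Pdcd11, 2310034G01Rik and Gm19557, 4 of them higher and 4 lower. Away from chromosomes 1 and 19 there were 28 shared rises and 87 shared falls. Of those 87 falls, 28 were on a lymphocyte, chemokine or lymphoid follicle list. These lists include the germinal centre genes put together after their values were seen, so the count of 28 supports nothing by itself. The share of all genes tested that are on these lists was not counted. The labels do not say whether the knockout lines share chromosome segments that the wild type mice lack, so such segments, the colony and the targeted alleles cannot be told apart.

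Pyroxd2, a mitochondrial oxidoreductase gene (mm9 chr19:42800348-42827265), had the smallest p of all genes for the mean. It was at 10.5, 10.5 and 9.33 CPM in Rag1-/- mice, 8.8, 9.67 and 10.1 CPM in separately housed Tcra-/- mice and 9.17, 9.42 and 9.21 CPM in co-housed Tcra-/- mice, against 55.8, 62.5 and 54.2 CPM in wild type mice. The 9 knockout mice lay between 8.80 and 10.5 CPM whatever their genotype or housing, and the mean log2 fold change was -2.58 (SE 0.06, adjusted p = 3.43e-13), from log2 fold changes of -2.51 in Rag1-/-, -2.59 in separately housed Tcra-/- and -2.63 in co-housed Tcra-/- mice. Ctse, the protease cathepsin E of epithelial and antigen-presenting cells (mm9 chr1:133534891-133572084), was at 0.367, 0.237 and 0.299 CPM in Rag1-/- mice, 0.219, 0.14 and 0.372 CPM in separately housed Tcra-/- mice and 0.514, 0.457 and 0.668 CPM in co-housed Tcra-/- mice, against 9.31, 7.66 and 9.32 CPM in wild type mice. It was close to 0 in every knockout mouse, with a mean log2 fold change of -4.66 (SE 0.17, adjusted p = 4.91e-11). Sox13 (mm9 chr1:135278877-135320789) was at 97.3, 97.1 and 100.4 CPM in Rag1-/- mice, 103, 97 and 114 CPM in separately housed Tcra-/- mice and 100.1, 87.6 and 105 CPM in co-housed Tcra-/- mice, against 39.8, 40.5 and 34.1 CPM in wild type mice. Its mean log2 fold change was 1.39 (SE 0.08, adjusted p = 4.51e-09), and its knockout groups, with the Rag1-/- mice that have no γδ T cells among them, were not called different (adjusted p = 0.515).

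Of the other genes there, Ppfia4 rose, with log2 fold changes of 1.28 in Rag1-/-, 1.24 in separately housed Tcra-/- and 1.35 in co-housed Tcra-/- mice. Got1 was at 76.4, 68 and 80.6 CPM in Rag1-/- mice, 58, 60 and 76.5 CPM in separately housed Tcra-/- mice and 82.6, 86.1 and 83.4 CPM in co-housed Tcra-/- mice, against 32.1, 38.4 and 33.8 CPM in wild type mice, and its mean log2 fold change was 1.09 (SE 0.09, adjusted p = 2.95e-07). For Sfxn2 and Optc the mean log2 fold changes were 0.95 (SE 0.13, adjusted p = 7.84e-05) and 1.39 (SE 0.17, adjusted p = 2.58e-05). Chi3l1, a chitinase-like secreted protein, was lower, with log2 fold changes of -3.71 in Rag1-/-, -4.44 in separately housed Tcra-/- and -4.28 in co-housed Tcra-/- mice. Ren1 and Ren2, the renin genes, overlap in the annotation and had identical counts in every mouse, so they are 1 measurement. That measurement was 4 reads in the 3 Rag1-/- mice, 8 in the 3 separately housed and 1 in the 3 co-housed Tcra-/- mice, against 186 in the 3 wild type mice. C57BL/6 mice are known to carry a single renin gene. Abca12, a lipid transporter also on chromosome 1 but outside the window, was at 0.343, 0.972 and 0.64 CPM in Rag1-/- mice, 0.439, 0.536 and 0.35 CPM in separately housed Tcra-/- mice and 0.114, 0 and 0.0495 CPM in co-housed Tcra-/- mice, against 6.68, 5.82 and 8.25 CPM in wild type mice. Its fall was deepest in co-housed Tcra-/- mice, with log2 fold changes of -3.40 in Rag1-/-, -3.96 in separately housed Tcra-/- and -7.01 in co-housed Tcra-/- mice. Some genes named in these windows lost the stricter call on leaving out 1 mouse. They were Taf5 in 11 of 12 fits, Etnk2 in 10, Sfxn2 in 4, Pdcd11 and Gm19557 in 2 each, and Pigr in 1.

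Treating the 9 knockout mice as 1 group, with differences between the knockout groups left in the spread, called 38 genes at the same threshold (0.240% of those tested, with 1812 at an unadjusted p under 0.05). Of these 9 were higher and 29 lower, all 38 were among the 166, and 21 (55.3%) were on chromosomes 1 and 19. Gcet2, Mef2b, Mybl1, Folr4, Gm600, S1pr2 and Cd5 remained among the falls, and Cd6, Cd8a and Igj did not. Mybl1, on chromosome 1, and Cd5, on chromosome 19, are among those 21.

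Some shared falls lay elsewhere and on no list. Barx2, a homeobox factor, was at 4.75, 8.65 and 5.4 CPM in Rag1-/- mice, 8.36, 5.33 and 7.61 CPM in separately housed Tcra-/- mice and 5.8, 4.55 and 4.28 CPM in co-housed Tcra-/- mice, against 26.2, 32.3 and 26.5 CPM in wild type mice. All 9 knockout mice lay far below wild type, with a mean log2 fold change of -2.24 (SE 0.16, adjusted p = 2.85e-07). Scgb3a1, a secretoglobin, was lower, with log2 fold changes of -1.73 in Rag1-/-, -2.91 in separately housed Tcra-/- and -1.94 in co-housed Tcra-/- mice. Klra6 and Klra19, receptors of the Ly49 family, had identical counts and are 1 measurement, with 0 reads in the 3 Rag1-/- mice, 0 in the 3 separately housed and 2 in the 3 co-housed Tcra-/- mice, against 75 in the 3 wild type mice. Timd2 and Havcr1, neighbouring TIM family genes on chromosome 11, were low as well. Timd2 had 14 reads in the 3 Rag1-/- mice, 20 in the 3 separately housed and 11 in the 3 co-housed Tcra-/- mice, against 231 in the 3 wild type mice. Havcr1 had 9 reads in the 3 Rag1-/- mice, 14 in the 3 separately housed and 7 in the 3 co-housed Tcra-/- mice, against 111 in the 3 wild type mice. Tnfsf13b, the B cell survival factor BAFF, was lower, with log2 fold changes of -0.91 in Rag1-/-, -0.80 in separately housed Tcra-/- and -1.15 in co-housed Tcra-/- mice. Nnt, the mitochondrial transhydrogenase gene that carries a deletion in the C57BL/6J substrain and is intact in C57BL/6N, was at 22.3, 19.4 and 22.1 CPM in Rag1-/- mice, 31, 37.1 and 34.4 CPM in separately housed Tcra-/- mice and 22.4, 23.4 and 24.7 CPM in co-housed Tcra-/- mice, against 57.3, 55.2 and 49.1 CPM in wild type mice. All 9 knockout mice lay below wild type, with reads in every one of them. The mean log2 fold change of Nnt was -1.06 (SE 0.07, adjusted p = 2.25e-08). Counts per gene do not show which part of Nnt the reads cover, so they do not show whether any mouse carries the deletion. From Klra6 on, these genes were chosen after their values were seen.

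Epithelial and stromal lists held few genes that moved in 1 direction. For comparison, the mean called 3.95% of all genes tested higher and 7.13% lower, or 1.86% and 4.71% with 1 sign. Paneth cell, smooth muscle, crypt, cholesterol synthesis, butyrophilin-like, and immediate early and heat shock lists had 0 of 18, 12, 20, 22, 4 and 15 members called by the mean. Summed smooth muscle markers ran from 2880 to 3590 CPM in Rag1-/-, 4550 to 4960 CPM in separately housed Tcra-/- and 2920 to 4580 CPM in co-housed Tcra-/- mice, against 3200 to 3520 CPM in wild type mice. All separately housed mice thus lay above wild type. Summed crypt markers ran from 1230 to 1290 CPM in Rag1-/-, 682 to 1120 CPM in separately housed Tcra-/- and 1350 to 1620 CPM in co-housed Tcra-/- mice, against 883 to 1230 CPM in wild type mice. All co-housed mice lay above wild type, and the separately housed mice overlapped it. The part of these sums in the results on other genes was not tested. The goblet cell list had 2 of 14 called lower, and neither had 1 sign in each group. Of 25 myeloid genes, 2 were lower, among them Flt3, a receptor of dendritic cell precursors, with log2 fold changes of -0.73 in Rag1-/-, -1.27 in separately housed Tcra-/- and -0.62 in co-housed Tcra-/- mice. Of 25 MHC class I and immunoproteasome genes, 7 were lower by the mean and 0 with 1 sign. Of 29 interferon gamma response genes, 3 were lower and 1 higher. Of those, Ido1, a tryptophan-degrading enzyme, had log2 fold changes of -2.29 in Rag1-/-, -2.31 in separately housed Tcra-/- and -0.67 in co-housed Tcra-/- mice. Ifngr2, a receptor chain, had log2 fold changes of -0.42 in Rag1-/-, -0.01 in separately housed Tcra-/- and -0.68 in co-housed Tcra-/- mice. Of 28 brush border and nutrient transport genes 9 were lower, 2 of them with 1 sign. Of 29 xenobiotic and retinoid genes 2 were higher and 9 lower, and of 29 lipid absorption genes 1 was higher and 7 were lower.

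Single members of the metabolic and cell type lists had 1 sign in each group with no shared call. The sodium and glucose transporter Slc5a1 was lower, with a mean log2 fold change of -0.46 (SE 0.10, adjusted p = 0.00471). So were the brush border protease subunit Mep1b, at -0.32, the sterol exporter subunit Abcg5, at -0.34, and the bile salt and drug exporter Abcc3, at -0.59. The enteroendocrine granule protein Chga was at -0.55, the prostaglandin synthase Hpgds at -0.61, the adipocyte regulator Pparg at -0.59, and the clock gene Per2 at -0.63. Apoc2, the activator of lipoprotein lipase, was higher, with a mean log2 fold change of 0.84 (SE 0.18, adjusted p = 0.00706). Ret, the receptor kinase of enteric neurons, was higher too, with 1.39 (SE 0.18, adjusted p = 0.000147) and log2 fold changes of 1.83 in Rag1-/-, 0.79 in separately housed Tcra-/- and 1.56 in co-housed Tcra-/- mice. Most of these were small, and leaving out 1 mouse ended the call in 9 of 12 fits for Abcg5 and Mep1b, 8 for Apoc2, 7 for Abcc3, 3 for Flt3, 2 for Chga, Pparg, Per2 and Slc5a1, and 1 for Hpgds and Ido1.

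Many genes called by the mean did not have 1 sign. Of the 1759, 717 had opposite signs in at least 1 pair of knockout groups. Of 648 genes that passed the test in each of the 3 comparisons, 482 did so in different directions. For the 6 of these with the smallest p among knockout groups, separately housed Tcra-/- mice stood on 1 side of wild type and both other groups on the other. Cat, the peroxide-degrading enzyme catalase, was at 59.5, 70.8 and 71.1 CPM in Rag1-/- mice, 316, 319.9 and 390.0 CPM in separately housed Tcra-/- mice and 62.6, 59.9 and 55.5 CPM in co-housed Tcra-/- mice, against 161, 179 and 149 CPM in wild type mice. Abcc6, a transporter, and Pcdh19, a protocadherin, had the same pattern. Abcc6 had log2 fold changes of -1.55 in Rag1-/-, 1.08 in separately housed Tcra-/- and -2.0 in co-housed Tcra-/- mice. Pcdh19 had log2 fold changes of -2.27 in Rag1-/-, 1.48 in separately housed Tcra-/- and -2.48 in co-housed Tcra-/- mice. Tm4sf4, a membrane protein of the epithelium, had log2 fold changes of -1.23 in Rag1-/-, 1.41 in separately housed Tcra-/- and -1.10 in co-housed Tcra-/- mice, and was not called by the mean (adjusted p = 0.0188). In the other direction, Slfn2, a Schlafen family gene of lymphoid and myeloid cells, was at 55.3, 65.6 and 57.8 CPM in Rag1-/- mice, 5.4, 6.97 and 5.58 CPM in separately housed Tcra-/- mice and 67.3, 82.6 and 76.5 CPM in co-housed Tcra-/- mice, against 19.9, 21.7 and 24.8 CPM in wild type mice. Its call by the mean was lost without wild type mouse WTB6x3159, at 0.36, and without WTB6x3160, at 0.42. Wtip, a LIM domain protein, had log2 fold changes of 2.42 in Rag1-/-, -0.83 in separately housed Tcra-/- and 2.31 in co-housed Tcra-/- mice. Fut2, a fucosyltransferase of the gut surface, and Lrg1, a secreted glycoprotein, were higher by the mean at 3.50 and 4.56, yet had -1.34 and -0.40 in separately housed mice, neither of which passed. The call of Lrg1 by the mean was lost without TCRaSepxT2, at 4.32, without WTB6x3159, at 4.29, and without WTB6x3160, at 4.55. A mean over the 3 groups does not describe any of these genes.

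**Figure D5:**
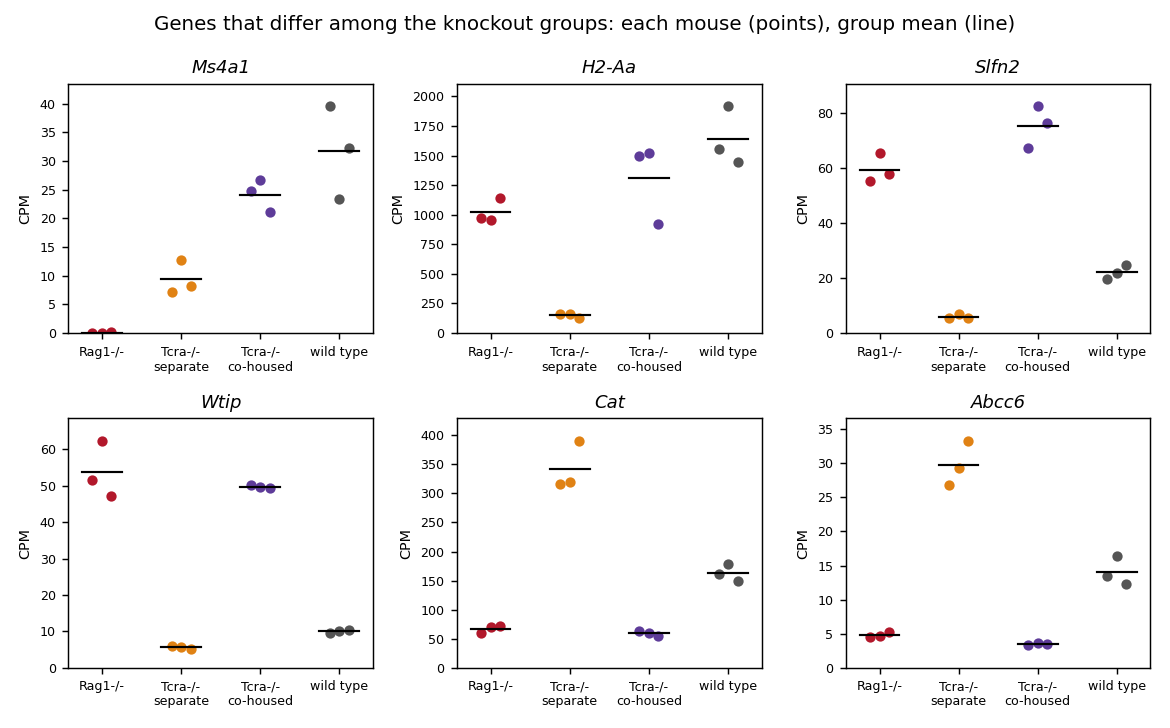
Level in CPM (y axis, from 0) in each mouse (points) and group mean (lines) for 6 genes whose knockout groups differ, in Rag1-/-, separately housed Tcra-/-, co-housed Tcra-/- and wild type mice. Ms4a1 is near 0 in Rag1-/- mice alone, H2-Aa is lowest in separately housed Tcra-/- mice, and in Slfn2, Wtip, Cat and Abcc6 the separately housed mice lie on the other side of wild type from both other groups.

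1700011H14Rik, on chromosome 14 (mm9 chr14:49846034-49865103), the chromosome of the T cell receptor α locus, divided the groups by genotype. It was at 23, 19.3 and 22.3 CPM in Rag1-/- mice, 0.527, 1.4 and 1.2 CPM in separately housed Tcra-/- mice and 0.2, 0 and 0 CPM in co-housed Tcra-/- mice, against 30.4, 35.2 and 33.7 CPM in wild type mice. Both Tcra-/- groups were near 0 and the Rag1-/- mice were nearer to wild type, so the mean log2 fold change of -4.89 (SE 0.24, adjusted p = 5.6e-08) rested on the Tcra-/- groups (adjusted p = 2.82e-08 among knockout groups). The Rag1-/- value of -0.62 did not pass the test (adjusted p = 0.0696).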

How the data were processed

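RNA of the terminal ileum was sequenced from stranded mRNA libraries, per the labels. Per the submitters' processing notes, TopHat2 2.0.11 with Bowtie2 2.2.2.0 placed the reads on mm9 and featureCounts (Subread 1.4.5-p1) counted them. The deposited values are raw read counts per gene, per the file headers. Whether counting used strand, and how it handled reads with several matches, is not stated in these sources. Of the 166 shared genes, 16 overlap exons of another gene and 4 have counts identical to another gene.

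Counts were filtered with filterByExpr, scaled by TMM and fitted with edgeR 4.0.16 (robust quasi-likelihood fit of the 4 groups with 8 residual degrees of freedom) in R 4.3.3. p-values were adjusted over all genes tested. They measure spread among mice, and cages are unknown. The SE is the log2 fold change divided by the square root of F. Floors and intervals cover counting error only. Alternatives used DESeq2 1.42.0 and limma 3.58.1.

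The members and lists were chosen with earlier results of these data known. Genes were named by size of the smallest group effect (12 rises, 12 falls, with groups that do not overlap), by list (up to 4), by spread and evenness among groups (6 each), and by opposite direction (6). The choices by size, spread and evenness took only genes with a mean log2 CPM above 1, so larger effects of genes with fewer reads stand outside them. Other genes named are list members, genes of the chromosome windows, or genes said to be chosen after their values were seen. A few genes that the rule names are not reported here. The model was tested on simulated data. There, 55 genes raised in the Rag1-/- group alone were called by the mean with 1 sign in each group. The stricter count called 0 of the genes raised in that group alone. A call by the mean with 1 sign can thus come from 1 group. Promoter sequences are from RefSeq (GRCm38.p6); coordinates of genes are mm9.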

Additional observations from a re-analysis of the deposited data

Results flagged for a closer look

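The knockout groups differed from each other in the results below, by the edgeR test among the 3 groups or by passing the test in opposite directions. Of the genes called in each of the 3 comparisons with wild type, 482 were not called in 1 direction. Among genes lower by the mean in every group, the adjusted p of the difference among knockout groups was 6.98e-07 for Cd79a, 4.22e-08 for Ms4a1, 7.16e-07 for Igj, 1.78e-06 for Cd3e and 2.82e-08 for 1700011H14Rik. In Cd79a, Ms4a1, Igj and Cd3e the fall was largest in Rag1-/- mice and smallest in co-housed Tcra-/- mice, and in 1700011H14Rik it was smallest in Rag1-/- mice. Among genes with opposite directions it was 3.19e-11 for Wtip, 4.08e-11 for Cat, 4.08e-11 for Slfn2, 7.41e-11 for Tm4sf4, 8.06e-11 for Abcc6 and 8.06e-11 for Pcdh19. In these 6 genes the separately housed Tcra-/- mice stood apart from the other knockout groups. These genes were named for that difference, so the values describe it.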

How the results depend on the processing

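No paired analysis was possible because the groups share no replicate numbers. Main counts were 627 higher and 1132 lower by the mean, 295 and 747 with 1 sign, 48 and 118 shared, and 6492 among knockout groups. DESeq2 size factors, the DESeq2 test, limma voom and 2 other count filters kept every such count within 1.5 times; DESeq2 was not run among knockout groups. Library size alone moved the median of all genes to -0.10 and gave 358 and 1930 by the mean and 168 and 1163 with 1 sign. An adjusted p under 0.05 gave 1226 and 1814, 578 with 1 sign higher, and 95 and 262 shared. The 9 knockout mice as 1 group gave 9 and 29. Without the Rag1-/- group the mean gave 176 and 493, with 129 and 428 of 1 sign. Without the separately housed Tcra-/- group it gave 1785 and 1968, with 1785 and 1943 of 1 sign and 1037 and 915 shared. Without the co-housed Tcra-/- group 75 and 528 were shared. Leaving out genes of chromosomes 1 and 19, chosen after seeing the data, left 28 shared rises. Leaving out each mouse in turn gave 345 to 645 higher and 740 to 1139 lower by the mean, 167 to 304 and 558 to 800 with 1 sign, 24 to 48 and 71 to 137 shared, and 5150 to 6647 among groups; 93 to 142 of the 166 shared genes kept that call. The mean of Pcdh19 turned to 0.082 with 9 mice as 1 group, and that of Slfn2 to -0.06 without the Rag1-/- group and -0.23 without the co-housed group. The causes were not tested. With 3 mice per group and few reads for germinal centre genes, small shared shifts may have been missed.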
